A study of Mus musculus with 19 samples.

Results

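The transcriptome of healthy mouse gastrocnemius, the main fast muscle of the calf, was described from 7 control libraries of a series of 19. The 7 were the libraries whose labels give healthy mice without a tumour, and every one of them was used. The other libraries came from mice labelled cachectic, male Balb/c that had received C26 cells, a colon adenocarcinoma line, under the skin of the flank at 2 months of age. Of these mice, those behind 7 libraries were injected with vehicle (ethanol in saline) from day 4, and those behind 5 with rolipram, a phosphodiesterase 4 inhibitor, at 3 mg/kg. Age, sex and strain are stated for the tumour-bearing mice and not for the controls. All 4 Y-linked genes examined (Ddx3y, Eif2s3y, Kdm5d and Uty) were detected in every control library, with a summed level of 43.9 to 61.5 RPKM, and neither Xist nor Tsix was in the table. RPKM, the unit of all levels here, is reads per kilobase of gene length per M (mega) reads. Gene length counts all annotated exons of a gene, which can be longer than the mRNA in use. Ranks, ratios and shares across genes therefore depend on the annotation.

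Fast-twitch fibres contract by sliding myosin filaments along actin filaments, gated by troponin and tropomyosin, which answer to calcium released from the sarcoplasmic reticulum. Energy comes first from phosphocreatine, then from glycogen and glycolysis, and in the more oxidative fibres from mitochondria. Most of the proteins in these chains belong to small gene families with a form used by fast muscle and other forms used by slow muscle, heart, embryo or non-muscle cells. Which form leads, and by how much, is commonly used to describe a fibre type.

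Recovered library sizes of the controls were 20.6 ± 1.94 M reads (SD, n = 7), from 18.6 to 23.2 M, and the listed genes held 97.6 to 97.8% of those reads. No control library was a copy of another: counts of the closest pair, libraries 4 and 5, differed by a chi-square per degree of freedom of 10.8. Whether every numbered sample came from its own mouse is not stated, and any p-value here measures spread among the samples as numbered, which may be technical. In whole muscle, fewer cells of a type and less RNA per cell cannot be told apart. Control library 3 stood apart by reads on 7 genes known to carry or overlap ribosomal RNA sequence, at 5.17% of summed RPKM against 0.526 to 1.21% in the other 6. Control library 7 stood apart by immunoglobulin and major histocompatibility genes, at 0.193% against 0.0462 to 0.0583%. Counts that rest on either library are also given without it.

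The transcriptome was top-heavy. Of 13067 genes in the table, 10652 (81.5%) had a mean of at least 1 RPKM, 3691 of at least 10, 428 of at least 100, 44 of at least 1000 and 6 of at least 10000. The 428 genes at or above 100 RPKM held 73.8% of summed RPKM and the 44 genes at or above 1000 held 53.2%. The 10 most abundant genes of each library held 32.1 ± 0.644% of it (SD, n = 7). For a majority of summed RPKM, 29 to 38 genes were enough in each library, and for 90% of it 2264 to 2694 genes. The 20 genes of highest mean held 42.9 to 45.9%, with a mean of 44.6 ± 0.992%.

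Skeletal alpha-actin, the thin filament protein, led the list. Acta1 (chr8:123891769-123894751, minus strand, GRCm38) had a lowest value of 21643, a median of 24696 and a highest value of 28645 RPKM, and was the most abundant gene in 6 of 7 libraries. In library 7 its level of 21643 RPKM was below the 25402 RPKM of mt-Co1, the mitochondrially encoded subunit of cytochrome oxidase. mt-Co1 averaged 21252 ± 2318 RPKM and mt-Cytb, the cytochrome b of complex III, 17614 ± 1962 RPKM. The thin filament switch followed with Tnnt3, fast troponin T (chr7:142498836-142516009, plus strand), at 15444 ± 1600 RPKM, and Tnnc2, fast troponin C, at 13358 ± 1562 RPKM. Of the exonic bases of Tnnc2 (chr2:164777161-164779967, minus strand), 84.6% overlap Ube2c on the opposite strand. The kit was stranded but the strand setting of the counting is not given, so the levels of both genes are uncertain.

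Behind these came motors, pumps and fuel enzymes at about the same level per length. Mylpf, the fast regulatory myosin light chain, averaged 9740 ± 2418 RPKM. Atp2a1, the calcium pump SERCA1, averaged 9704 ± 852 RPKM. Tnni2, fast troponin I, averaged 9239 ± 633 RPKM, and Ckm, the cytosolic creatine kinase, 9130 ± 713 RPKM. Pvalb, the calcium buffer parvalbumin, averaged 9045 ± 1731 RPKM and Myh4, the myosin heavy chain of type IIb fibres, 8530 ± 1299 RPKM. These 6 genes lay within each other's spread: Myh4 ranged from 7060 to 10246 RPKM and Mylpf from 6704 to 13332 RPKM.

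The next tier held Aldoa (aldolase A) at 6808 ± 415 RPKM, Myl1 (fast essential light chain) at 5610 ± 1054 RPKM, Eno3 (muscle enolase) at 4040 ± 228 RPKM and Tpm1 (alpha-tropomyosin) at 3627 ± 413 RPKM. The symbol Aldoa stands for 2 annotated genes on chromosome 7, so it has no single length or locus here and is left out of every value given by reads. The Z-disc protein telethonin, Tcap, stood at 3250 ± 711 RPKM. Glycogen phosphorylase, Pygm, had 2949 ± 283 RPKM and phosphoglycerate mutase, Pgam2, 2353 ± 214 RPKM. The last of the 30 were Actn3 (fast alpha-actinin) at 2287 ± 317 RPKM, Mb (myoglobin) at 2053 ± 423, Slc25a4 (ADP/ATP carrier) at 1994 ± 94.5, Gapdh at 1846 ± 224, Atp5b (ATP synthase beta) at 1837 ± 131, Myoz1 (the calsarcin of fast fibres) at 1665 ± 93.8 and Casq1 (calsequestrin) at 1635 ± 278. Rank 20 was the predicted gene Gm23935, an annotation of 57 bases at 3268 ± 4372 RPKM, whose mean rests on library 3 (12992 RPKM against 981 to 3431 in the others).

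**Figure D1:**
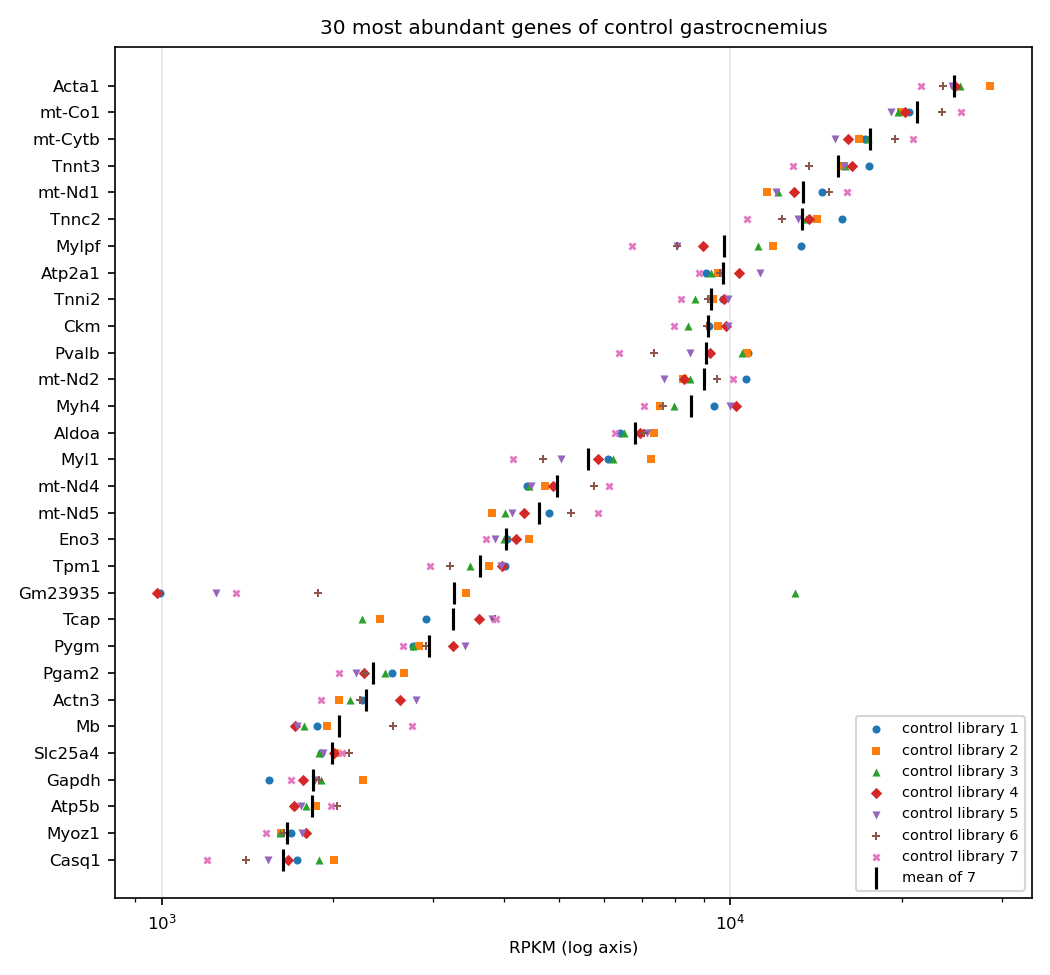
RPKM (log axis) of the 30 genes of highest mean in control gastrocnemius, with a symbol for each of the 7 libraries and a black tick for their mean. Acta1 leads at 24755 RPKM, and Gm23935 is spread from 981 to 12992 RPKM, with library 3 highest.

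Per length and per read, the order differed. The 30 most abundant genes by RPKM had a median exonic length of 1446 bases, against 3280 over the 12987 genes with a length. By reads, Myh4 came first with 5.25% of the reads on listed genes, ahead of Acta1 with 3.67%, Atp2a1 with 3.45% and mt-Co1 with 3.36%. Ttn, which encodes the giant spring protein titin over 113588 exonic bases, took 1.49% of reads and rank 9 by reads. On the RPKM scale it had rank 345, at 128 ± 9.99 RPKM. Neb, the thin filament ruler nebulin, ranked 22 by reads and 169 by RPKM, at 251 ± 24.3 RPKM. Level for level, Neb stood at 1.95 ± 0.131 times Ttn, with every library between 1.74 and 2.09.

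Ratios between partners of the same machine were taken within each library. Acta1 stood at 2.57 ± 0.421 times the summed Myh1, Myh2, Myh4 and Myh7, from 2.20 in library 5 to 3.37 in library 2. Tnnt3 stood at 1.67 ± 0.122 times Tnni2 and Tnnc2 at 1.44 ± 0.125 times Tnni2. Mylpf stood at 1.73 ± 0.222 times Myl1, although both light chains varied: Mylpf had 13332, 11896 and 11177 RPKM in libraries 1 to 3 and 6704 to 8943 RPKM in libraries 4 to 7. That ratio rests on annotated lengths of 819 and 1475 bases, as mean reads were 161945 for Mylpf and 168815 for Myl1. Pvalb showed 10729, 10687 and 10483 RPKM in libraries 1 to 3 and 6372 to 9213 RPKM in the other 4. Atp2a1 stood at 29.4 ± 3.82 times Ryr1, the calcium release channel it works against, and Pygm at 21.7 ± 2.94 times Gys1, glycogen synthase.

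The sequences upstream of skeletal actin and type IIb myosin are shown because theirs were the windows with a CArG box among the most abundant genes. Muscle promoters are known for CArG boxes, bound by serum response factor, and E-boxes, bound by myogenic factors. Each stretch is the 120 bases before the RefSeq gene start (GRCm38.p6), read 5′ to 3′ on the gene's strand. The stretches are chr8:123894776-123894895 (minus strand) and chr11:67237692-67237811 (plus strand). Capitals mark the CArG box.
Acta1: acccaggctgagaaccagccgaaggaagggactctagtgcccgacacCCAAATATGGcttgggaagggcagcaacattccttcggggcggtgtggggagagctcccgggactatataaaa
Myh4: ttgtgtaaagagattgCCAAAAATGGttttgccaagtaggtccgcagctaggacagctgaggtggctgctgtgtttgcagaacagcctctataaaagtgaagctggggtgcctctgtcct

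In windows of 250 bases before to 50 after the start, searched on both strands, a CArG box was found in 2 of the 18 most abundant genes that had a window out of 30 (11.1%), which are Acta1 and Myh4. It was found in 1.34% of the windows of all listed genes and in 1.57% of all RefSeq windows. The E-box CANNTG was found in 16 of the 18 (88.9%), 63.2% of listed genes and 72.1% of RefSeq windows. TATAAA was found in 3 of the 18 (16.7%), 7.33% of listed genes and 14.2% of RefSeq windows. A match is a description of letters and not a measured binding site.

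Sorted by function, contraction and respiration filled the transcriptome. Sarcomere proteins and their regulators (80 genes) held 24.6 ± 1.76% of summed RPKM (SD, n = 7), from 21.7% in library 7 to 26.1% in library 1. The mitochondrial genome held 16.3 ± 1.78% from 17 listed genes, from 14.9% to 19.5%, with library 7 highest and library 6 next at 17.9%. Nuclear-encoded oxidative phosphorylation (87 genes) held 6.08 ± 0.307%, glycolysis and glycogen (52 genes) 5.87 ± 0.359%, and calcium cycling and excitation (52 genes) 5.70 ± 0.505%. Phosphagen and purine nucleotide enzymes (16 genes) held 2.63 ± 0.201%, of which Ckm, Ckmt2 and Ak1 made 91.9%.

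The machinery for making and clearing protein held small shares. Cytosolic ribosomal proteins (83 genes, with Rplp1 and Rps29 among the leading ones) held 2.42 ± 0.170%, and translation factors (63 genes, led by Tpt1, Eef1a2 and Eef2) 0.973 ± 0.0268%. Ubiquitin and proteasome genes (205 genes, led by Trim54, Ube2b and Ube2c) held 1.31 ± 0.0413%. Chaperones (80 genes, led by Hsp90ab1, Hspa9 and Hspb8) held 0.612 ± 0.0428%. Antioxidant and metal-binding genes (29 genes, led by Selenow, Fth1 and Sod1) held 0.794 ± 0.0189%. The citric acid cycle with pyruvate dehydrogenase (33 genes, with Mdh2 and Cs among the leading ones) held 1.38 ± 0.0981%. Mitochondrial ribosomal proteins (77 genes, led by Mrpl42, Mrps21 and Mrpl14) held 0.524 ± 0.0132%, and other mitochondrial carriers and channels (21 genes, led by Slc25a4, Vdac1 and Slc25a3) 1.12 ± 0.0736%.

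Several smaller categories were uneven between libraries. Fatty acid uptake and oxidation (36 genes, led by Fabp3, Fabp4 and Acadvl) held 0.741 ± 0.118%, with 0.933% in library 6 and 0.881% in library 7 against 0.643 to 0.724% in the other 5. Fabp4 is also in the list of adipocyte markers used below, whose sums were highest in libraries 7 and 6. Oxygen binding and carbonic anhydrase, mostly Mb and Car3, held 0.732% and 0.764% in libraries 6 and 7 against 0.461 to 0.507% in the other 5. Collagen and matrix (83 genes, led by Dcn, Sparc and Sparcl1) held 0.290 ± 0.0621%, from 0.190% in library 4 to 0.376% in library 2. Haemoglobin made 0.0303 ± 0.0118%, led by Hbb-bs at 85.2 ± 33.4 RPKM, and major histocompatibility and immunoglobulin genes 0.0732 ± 0.0532%. The 12022 genes outside the categories held 28.0 ± 1.56%, or 38.4% by reads.

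**Figure D2:**
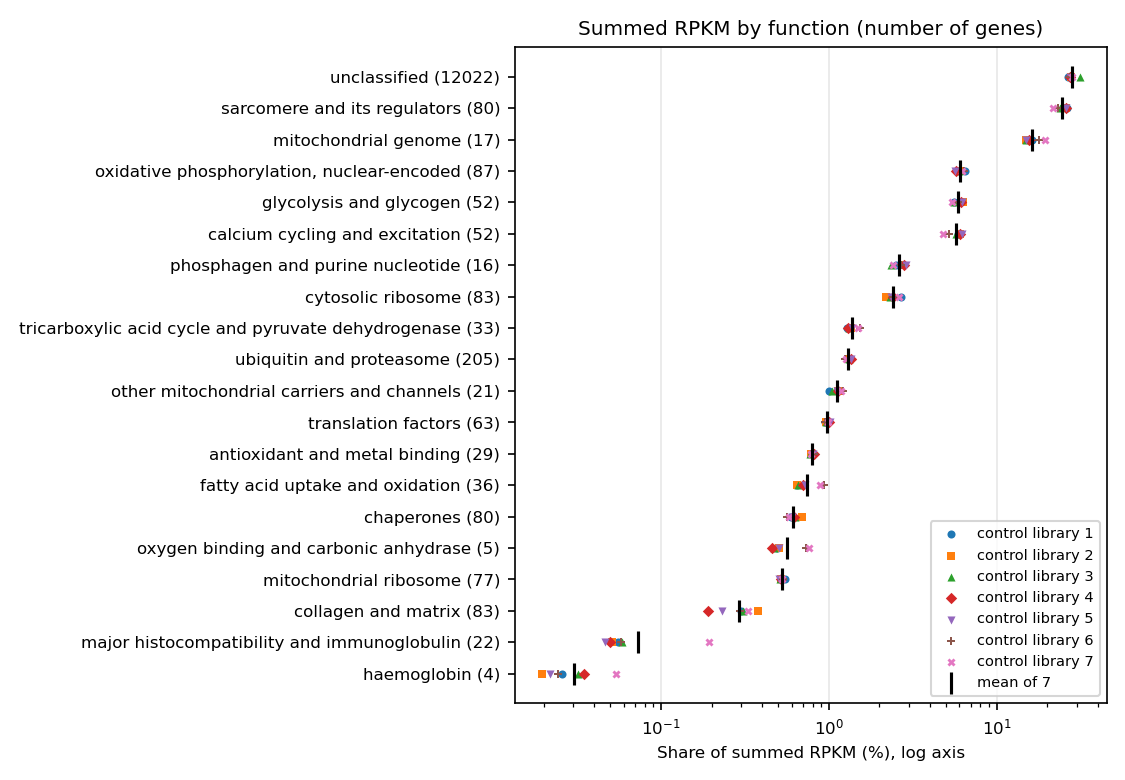
Share of summed RPKM (%, log axis) in each functional category, with the number of genes in brackets, a symbol for each of the 7 control libraries and a black tick for their mean. Sarcomere genes hold 24.6% and the mitochondrial genome 16.3%, while library 7 alone sets the spread of the immunoglobulin category (0.193%).

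The weight given to length moved some of these shares. Taken as a share of reads, sarcomere genes held 24.8 ± 1.50%, the mitochondrial genome 9.56 ± 1.04%, nuclear-encoded oxidative phosphorylation 3.04 ± 0.171% and cytosolic ribosomal proteins 1.09 ± 0.0709%. Only 17 of the 37 mitochondrially encoded genes of the annotation were in the table, among them 7 of 13 mRNAs, so the true mitochondrial share is not given by these values. Among those 7 mRNAs, mt-Co1, mt-Cytb, mt-Nd1 (13445 ± 1694 RPKM) and mt-Nd2 (8987 ± 1106 RPKM) were above mt-Nd4 (4963 ± 696), mt-Nd5 (4603 ± 739) and mt-Nd6 (1107 ± 190). Of the 50-base words of mt-Co1 51.1%, and of those of mt-Nd4 62.2%, also occur in other genes, so these 2 levels are uncertain.

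Glycolysis was uneven along its own order of steps. Hexokinase 2, Hk2, which traps glucose, had 72.7 ± 7.46 RPKM and Gpi1 321 ± 23.5 RPKM. Phosphofructokinase, Pfkm, the committing step, had 1444 ± 99.4 RPKM, and Aldoa, Tpi1 and Gapdh had 6808, 1205 and 1846 RPKM. Pgk1 was low at 257 ± 41.0 RPKM between Gapdh and Pgam2, and 53.9% of its 50-base words also occur in transcripts of other genes. How reads shared between copies were counted is not given. Eno3, Pkm and Ldha closed the path with 4040, 1144 and 1319 RPKM. In glycogen metabolism Pygm stood apart at 2949 RPKM, while Gys1 had 137 ± 9.33 RPKM. Gbe1, the branching enzyme, had 15.7 ± 3.94 RPKM.

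Respiratory complexes showed stepwise levels. The median subunit had 189 RPKM in complex I (36 genes), 287 in complex II (4 genes), 545 in complex III (9 genes), 554 in complex IV (10 genes) and 380 in ATP synthase (15 genes). Within complex I most subunits lay close together, such as Ndufs1 at 198 ± 8.12 RPKM and Ndufa9 at 217 ± 18.8 RPKM. Ndufb2 (8.91 ± 0.849), Ndufab1 (19.3 ± 1.35) and Ndufb4 (19.6 ± 2.14 RPKM) were far below, and so was Atp5l of ATP synthase at 6.34 ± 0.617 RPKM. The share of 50-base words found in other genes was 18.3% for Ndufb4, 7.63% for Atp5l, 7.13% for Ndufab1 and 1.91% for Ndufb2. These shares are over the words of all annotated transcripts of a gene, 6487 for Atp5l and 6869 for Ndufab1. A low share therefore does not show that the main mRNA is free of shared words. Whether reads of these genes were dropped in counting was not tested, so their low levels are uncertain. In the citric acid cycle (17 genes, median 272 RPKM) Dlst, a subunit of 2-oxoglutarate dehydrogenase, had the lowest mean and was uneven, with 113, 138 and 133 RPKM in libraries 1 to 3, 71.5 in library 4 and 26.2 to 30.5 RPKM in libraries 5 to 7.

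Genes of excitation and calcium release were at lower levels than the pump and the buffer. Ryr1, the release channel, had 336 ± 59.3 RPKM and Cacna1s, the voltage sensor, 148 ± 15.2 RPKM. Their couplers Stac3 (151 ± 17.6 RPKM), Jsrp1 (312 ± 30.7 RPKM) and Trdn (triadin, 151 ± 23.7 RPKM) lay in the same range. Casq1, which stores calcium, had 1635 RPKM, and the pump and the buffer, Atp2a1 and Pvalb, had 9704 and 9045 RPKM. Of the small pump inhibitors, Mrln had 112 ± 32.8 RPKM while Sln, sarcolipin, had 0.335 to 1.23 RPKM in 6 libraries and 12.8 RPKM in library 3. Pln, phospholamban, the inhibitor of slow fibres and heart, had 0.772 to 2.00 RPKM.

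Isoform choice was examined in 52 gene families with 161 members, of which 146 were in the table. In 48 families at least 2 members were listed, and the form listed here as the muscle form led in 46 of them. That listing was a choice and does not mean that a form is restricted to muscle. The same member led in all 7 libraries in 47 families. The leading member held at least 95% of its family's summed RPKM in 23 families, 80 to 95% in 14 and less than 80% in 11. For 47 families a fixed pair of muscle form and alternative was compared within libraries by an exact sign-flip test over 128 sign assignments, two-sided, adjusted by Benjamini-Hochberg over the 47 pairs. The muscle form was higher in 44 pairs (93.6% of those tested) and the alternative in 2 (4.26%), each at exact sign-flip p = 0.0156, the smallest this test can give (adjusted p = 0.0160), with the same direction in 7 of 7 libraries. Each pair set the form listed as the muscle form against a chosen alternative, with earlier results of these data known. The outcome was therefore largely set by the choice of pairs, and these counts are a description only.

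Most contractile families were held almost wholly by their fast form. Atp2a1 made 99.4 ± 0.138% of SERCA RPKM and stood 7.38 ± 0.31 above Atp2a2, the slow form, on the log2(RPKM + 1) scale. Tnni2 made 99.5 ± 0.157% of troponin I against Tnni1, Tnnc2 99.2 ± 0.233% of troponin C and Tnnt3 99.0 ± 0.225% of troponin T. Acta1 made 98.6 ± 0.297% of actin RPKM, while Actc1, cardiac actin, had 80.4 to 275 RPKM, Actb 137 ± 24.5 RPKM and Acta2, smooth muscle actin, 28.2 ± 7.72 RPKM. The regulatory light chain Mylpf made 97.6 ± 0.679% and the essential light chain Myl1 95.5 ± 1.34% of their families.

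Myosin heavy chain was led by Myh4 but shared. Myh4 made 87.0 ± 5.17% of the family, with 88.2 to 91.0% in libraries 1 to 5, 81.3% in library 6 and 78.0% in library 7. Myh1, of type IIx fibres, had 986 and 1110 RPKM in libraries 6 and 7 and 415 to 616 RPKM in the other 5. Myh2, of type IIa fibres, had 664 and 780 RPKM there against 370 to 518 RPKM, and Myh7, of slow fibres, 76.8 and 84.0 RPKM against 35.8 to 63.1 RPKM. Developmental forms were near the bottom of the scale, with Myh3 at 0.966 ± 0.344 RPKM and Myh8 at 0.983 ± 0.221 RPKM. Of the 50-base words of Myh4, 18.9% occur in other genes, as do 25.4% of those of Myh1 and 22.9% of those of Myh2, so the split between these myosins is uncertain.

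The same libraries 6 and 7 were the 2 highest for some other genes, among them genes of oxidative metabolism. Mb had 2557 and 2752 RPKM there, against 1715 to 1956 RPKM in the other 5, and Car3, a carbonic anhydrase, 740 and 650 RPKM against 318 to 443. Tpm2, beta-tropomyosin, had 1861 and 1836 RPKM against 1103 to 1432 RPKM, and Ldhb, the lactate dehydrogenase subunit of oxidative tissue, 259 and 248 RPKM against 157 to 192 RPKM. Ckmt2, the mitochondrial creatine kinase, had 1521 and 1456 RPKM against 967 to 1366 RPKM. In each of these genes, named because of this pattern, the 2 libraries did not overlap the other 5. How many of all genes separate the libraries in this way was not counted, so the pattern is a description only. The summed slow-fibre list (12 genes) was also highest there, at 1526 and 1722 RPKM against 1160 to 1416 RPKM, and so was the adipocyte list. Of the 12 slow-fibre genes 10 were highest in library 7, but not all separated both libraries. The type IIa list also had its highest sum in library 7, but only 1 of its 4 genes, Myh2, was highest there. Myl2 made 1.52% of regulatory light chain RPKM in library 6, against 1.59% in library 1 and 2.13% in library 4. What set these libraries apart was not tested.

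Families of the Z-disc and thick filament shared more evenly. Actn3 made 84.5 ± 3.29% of alpha-actinin, with Actn2 at 393 ± 56.2 RPKM. Mybpc2, fast myosin-binding protein C, made 78.8 ± 4.48%, with Mybpc1 at 432 ± 86.2 RPKM. Tpm1 made 70.7 ± 6.71% and Tpm2 28.1 ± 6.55% of tropomyosin. By reads the 2 lay further apart, with 1.78% and 0.350% of the reads on listed genes. Myoz1 made 89.0 ± 1.19% of myozenin and Flnc 83.1 ± 2.85% of filamin.

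Many metabolic families were also held almost wholly by their muscle form. Pygm made 99.9 ± 0.0679% of glycogen phosphorylase, Pgam2 99.9 ± 0.0182% of phosphoglycerate mutase, Pfkm 99.7 ± 0.0691% of phosphofructokinase and Eno3 99.5 ± 0.0493% of enolase. Slc2a4, the insulin-responsive glucose transporter GLUT4, made 97.8 ± 0.377% with 206 ± 15.5 RPKM, and Hk2 made 96.6 ± 0.687% of hexokinase. Ampd1 made 98.0 ± 0.481% of AMP deaminase and Ak1 94.6 ± 0.830% of adenylate kinase. In lactate handling the split was wider: Ldha made 86.9 ± 3.39% and Slc16a3, the lactate exporter MCT4, 82.3 ± 3.10% of the compared transporters. Cytochrome oxidase used its muscle forms Cox6a2 (94.6 ± 0.522%) and Cox8b (95.6 ± 0.477%), while Cox7a1 made only 63.1 ± 1.66% against Cox7a2. Eef1a2, the elongation factor of muscle and nerve, made 84.1 ± 4.29% against Eef1a1.

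**Figure D3:**
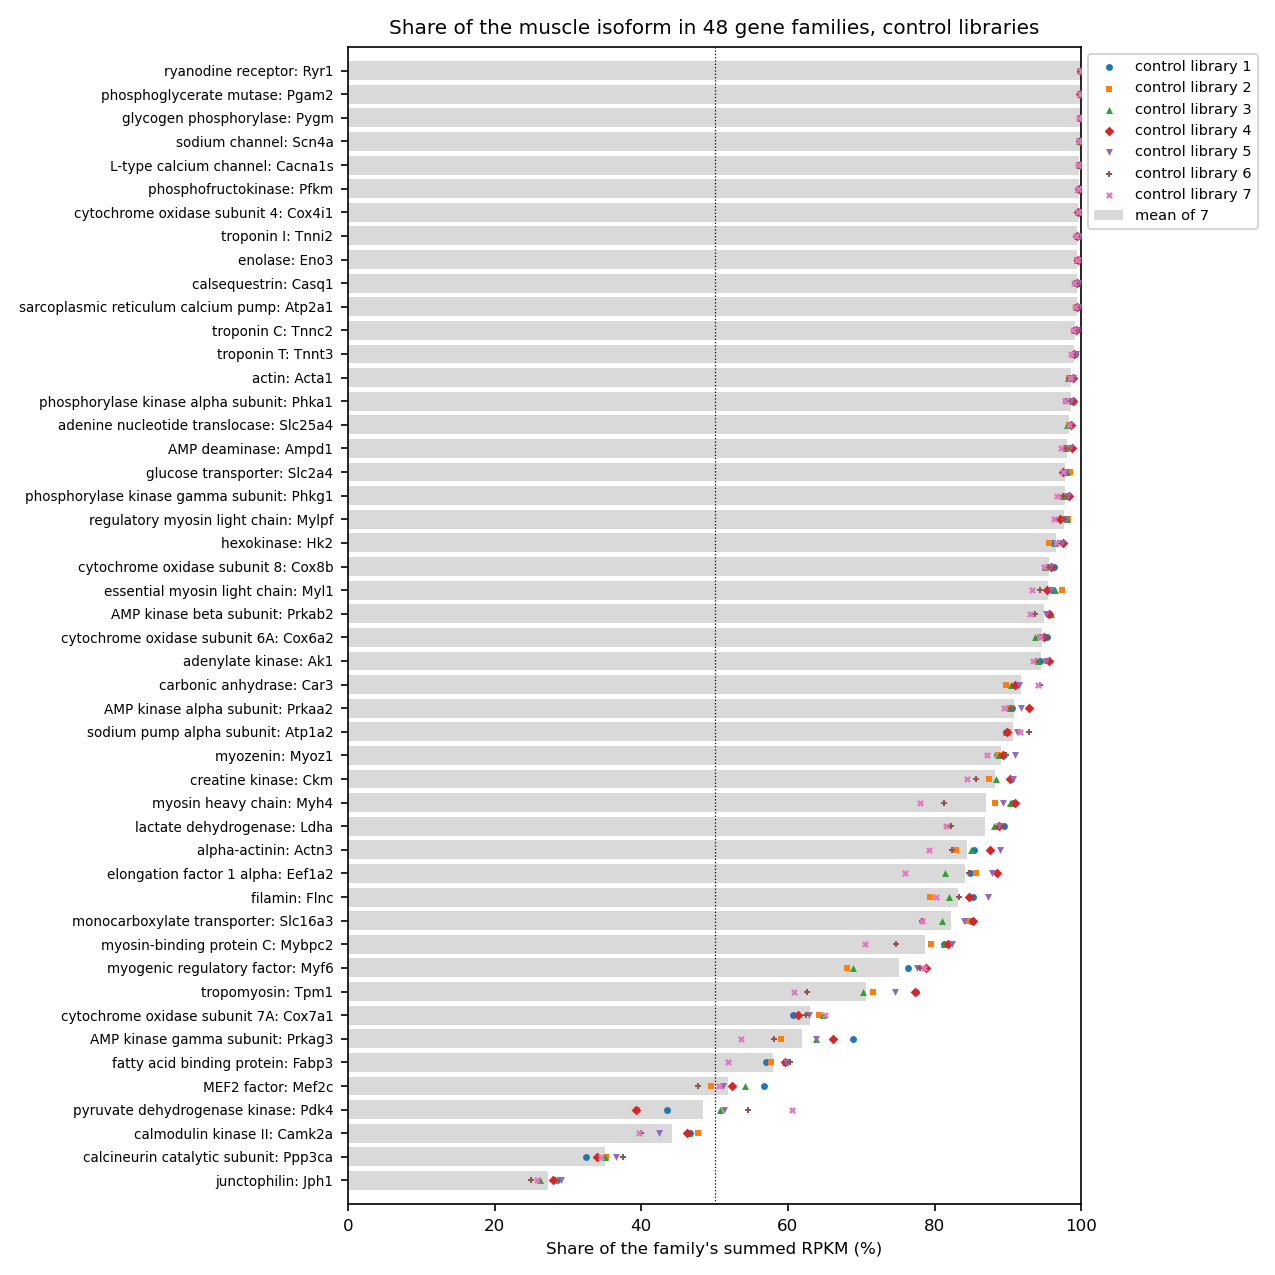
Share of each family's summed RPKM (%) held by the muscle isoform named beside it, in 48 families, as grey bars for the mean of 7 control libraries and symbols for each library. Ryr1 is at the top with 99.9% and Jph1 at the bottom with 27.3%, and libraries 6 and 7 lie lowest for Myh4 and Tpm1.

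In 2 families the form listed as the muscle form did not lead. Jph2, a junctophilin that holds the sarcoplasmic reticulum to the surface membrane and is best known from heart, made 72.7 ± 1.55% with 207 ± 13.2 RPKM, over Jph1 with 78.0 ± 9.62 RPKM, and was higher in 7 of 7 libraries. Ppp3cb made 54.4 ± 2.29% of calcineurin catalytic subunits with 58.1 ± 5.26 RPKM, over Ppp3ca with 37.3 ± 1.82 RPKM, also in 7 of 7. Pyruvate dehydrogenase kinase was split: Pdk4, induced by fasting, had 155 to 406 RPKM and Pdk2 201 to 278 RPKM, and Pdk4 was higher in 4 of 7 libraries (exact sign-flip p = 0.906).

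Signalling families also had no single owner. Among the calmodulin kinase II genes Camk2a led with 44.2 ± 3.40%, followed by Camk2g with 34.0 ± 2.60% and Camk2b with 18.6 ± 1.15%. These are levels of whole genes, so which transcripts or products of Camk2a were present cannot be told. Mef2c made 51.8 ± 3.00% of MEF2 factors, Mef2d 32.3 ± 3.42% and Mef2a 15.5 ± 0.574%. Myf6 made 75.2 ± 4.65% of the myogenic regulatory factors with 57.7 ± 7.98 RPKM, above Myod1 (12.9 ± 2.71), Myog (5.52 ± 2.70) and Myf5 (0.878 ± 0.174 RPKM). In the energy sensor AMP kinase, Prkaa2 made 90.8 ± 1.14% of the alpha and Prkab2 94.9 ± 1.11% of the beta subunits. Prkag3, a gamma subunit best known from glycolytic muscle, made 62.0 ± 5.26% against 34.2 ± 4.54% for Prkag1.

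Spread between control libraries was small for most genes. The SD of log2(RPKM + 1) had a median of 0.148 over the 10652 genes with a mean of at least 1 RPKM, against 0.221 in C26 vehicle and 0.197 in C26 rolipram libraries. Counting error alone had a median of 0.071 for log2 reads, without the added 1. On the log2(RPKM + 1) scale it would be smaller, mostly for genes near 1 RPKM, so 0.071 is too high for a direct comparison. The median SD was 0.157 for genes at 1 to 10 RPKM, 0.129 at 10 to 100, 0.148 at 100 to 1000 and 0.157 at 1000 and above, where counting error had a median of 0.0048. At least 1 log2 unit of SD was reached by 42 genes, and the highest library was library 7 for 17 of them and library 3 for 15. Without library 3 the count was 27, without library 7 it was 30, and without both, a setting chosen after seeing the data, it was 19.

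Library 7 set the spread of immunoglobulin and antigen presentation genes. Igkc, the immunoglobulin kappa constant region, had the largest SD of all (2.50, and 0.26 without library 7), at 150 RPKM in library 7 and 0.280 to 0.915 RPKM elsewhere. Ighg1, an IgG heavy chain, had 24.1 RPKM there and at most 0.026 RPKM elsewhere. Coro1a, a coronin of blood cells, had 26.5 RPKM against 0.587 to 2.19. H2-Aa, a major histocompatibility class II chain, had 66.9 RPKM against 3.54 to 11.8, Cd74, its invariant chain, 86.7 RPKM against 5.89 to 16.1, and the class II pseudogene H2-Ea-ps 53.1 RPKM against 3.32 to 9.36. Igkc was also uneven in C26 vehicle libraries, at 280 ± 735 RPKM. None of the 7 lymphocyte markers examined (among them Cd3e, Cd3g, Cd3d, Cd79a, Cd79b and Ms4a1) was in the table. The filter on listed genes is not given, so this absence does not give their level in library 7. The macrophage list (9 of 9 genes) summed to 124 RPKM in library 7 and 104 RPKM in library 3, against 28.0 to 56.4 RPKM in the other 5, and 7 of the 9 genes were highest in library 7.

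Library 3 set the spread of another set. The 7 genes grouped here as carrying or overlapping ribosomal RNA sequence were Gm23935, Gm42418, n-R5-8s1, AY036118, Gm15564, Mir6236 and Lars2. Of these only n-R5-8s1 is annotated as ribosomal RNA, and Lars2 is protein-coding. Besides them, library 3 held the highest values of Gpnmb, a glycoprotein of macrophages (13.9 RPKM against 0.442 to 0.926), and Sln. n-R5-8s1 had 1636.5 RPKM in library 3 against 32.3 to 144 RPKM elsewhere. The membership of these 7 genes in a ribosomal RNA group was chosen after their values were seen. Cish, a feedback inhibitor of cytokine signalling, had 42.1 RPKM in library 3, but its other libraries were themselves spread from 2.68 to 19.2 RPKM. The immediate early gene Fos had 36.3 RPKM in library 3, 26.7 in library 1, 16.3 in library 7 and 2.38 to 7.06 RPKM in the other 4.

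Single libraries also led for heat shock and for an RNA of nerve. Hspa1b and Hspa1a, the inducible Hsp70 genes, had 26.5 and 23.3 RPKM in library 2 against at most 2.10 and 1.88 RPKM elsewhere, and they share 62.3% and 60.3% of their 50-base words with other genes. Bc1, a small neuronal RNA, had 37.2 RPKM in library 1 against 2.65 to 8.82 RPKM. Arrdc2, an arrestin-domain gene, was graded rather than set by a single library, with 2.26, 9.26 and 3.71 RPKM in libraries 1 to 3 and 22.7 to 53.9 RPKM in libraries 4 to 7. Slc25a25, a mitochondrial ATP-Mg carrier, had 75.4 RPKM in library 2, 33.5 to 39.2 RPKM in libraries 4 to 6 and 7.79 to 13.1 RPKM in libraries 1, 3 and 7.

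Among genes with a mean of at least 100 RPKM, those of the ribosomal RNA group varied most over the 7 libraries, with SDs of 1.03 (Mir6236) to 1.97 (n-R5-8s1). These values rest on library 3: without it, the SDs were 0.62 for Mir6236, 0.66 for Lars2, 0.69 for Gm23935, 0.71 for Gm42418 and 0.81 for n-R5-8s1, and Ppp1r3c had the largest SD (0.78) among genes still at a mean of at least 100 RPKM. Over all 7 libraries they were followed by Ppp1r3c, a glycogen-targeting phosphatase subunit, at 65.2 to 251 RPKM (SD 0.72), and Actc1 at 80.4 to 275 RPKM (SD 0.72). Ppp1r27 ranged from 97.7 to 262 RPKM (SD 0.60) and was highest in libraries 1 to 3. Ube2c, which overlaps Tnnc2 on the opposite strand, ranged from 81.4 to 289 RPKM (SD 0.60), and Pdk4 from 155 to 406 RPKM (SD 0.57).

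**Figure D4:**
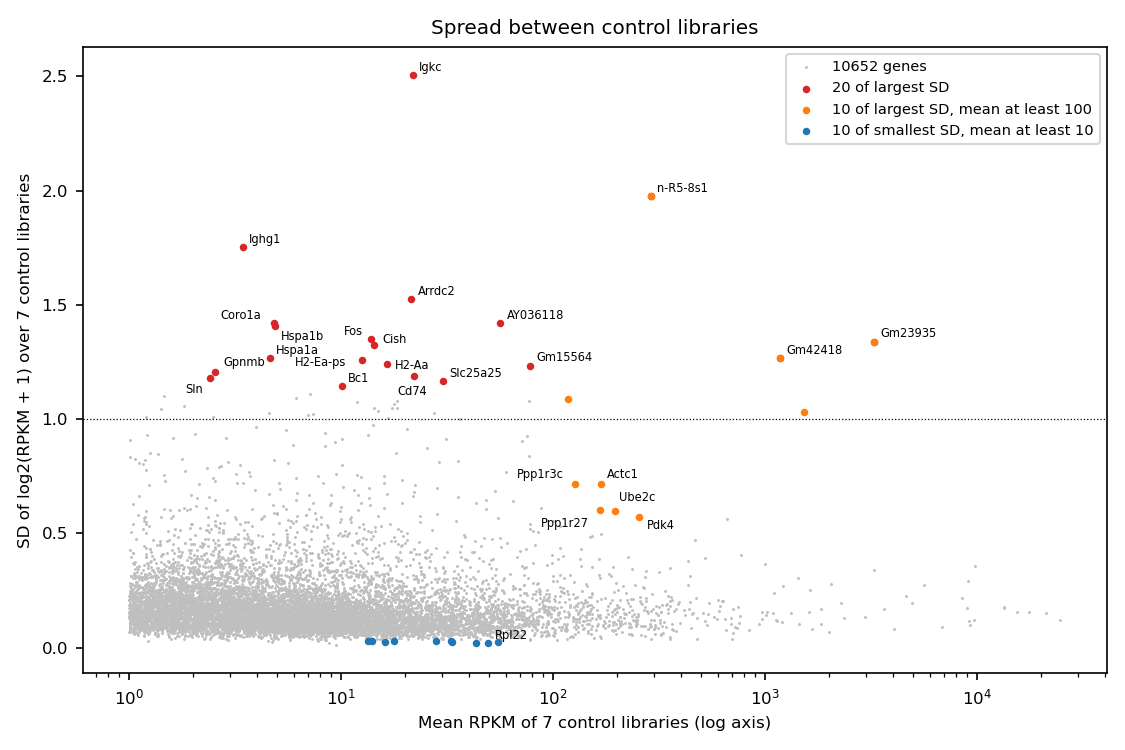
SD of log2(RPKM + 1) over the 7 control libraries against mean RPKM (log axis) for 10652 genes in grey, with the 20 genes of largest SD in red, the 10 of largest SD at a mean of at least 100 RPKM in orange (drawn over red where a gene is in both) and the 10 of smallest SD at a mean of at least 10 RPKM in blue. The dotted line marks an SD of 1, which 42 genes reach, led by Igkc at 2.50.

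The 10 genes of smallest spread had means of 13.4 to 54.9 RPKM. Rpl22, a ribosomal protein, ran from 48.8 to 50.5 RPKM (SD 0.019), within its counting error of 0.031. Uba1, the ubiquitin-activating enzyme, ran from 42.3 to 44.4 RPKM (SD 0.022), Faf1 from 15.8 to 16.6 RPKM, Babam1 from 32.6 to 34.5 RPKM and Ide, an insulin-degrading protease, from 27.1 to 28.6 RPKM. The rest of the 10 were Ddb1, Limch1, the adaptor subunit Ap2s1, the tryptophan tRNA ligase Wars and Tex2, with SDs of 0.026 to 0.031. Gapdh, often used for scaling, ran from 1542 to 2261 RPKM. Rpl22 averaged 87.4 RPKM in C26 vehicle and 92.0 RPKM in C26 rolipram libraries, against 49.5 RPKM in controls, and Babam1 31.2 and 36.5 RPKM, against 33.5 RPKM.

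Marker lists of other cells were summed in each library. The Schwann cell list (7 of 8 genes listed) summed to 169 RPKM in library 6 against 29.1 to 71.2 RPKM elsewhere, and all 7 genes were highest there. The adipocyte list (11 genes) summed to 691 RPKM in library 7 and 527 in library 6 against 315 to 373 RPKM, with 9 of 11 genes highest in library 7. Its adipsin gene Cfd had 191 and 111 RPKM there against 34.4 to 67.0. The erythroid list (5 of 6 genes) summed to 246 RPKM in library 7 against 90.6 to 157 RPKM. The neutrophil list had 2 of 5 genes listed, S100a8 and S100a9, both at or below 3.37 RPKM.

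For the lists that follow, no control library lay far from the rest by Dixon's gap test at the 95% level. The fibroblast list (9 genes) summed to 435 to 894 RPKM, lowest in libraries 4 and 5, and the endothelium list (8 genes) to 82.6 to 133 RPKM. The tendon list (8 genes) summed to 114 to 215 RPKM. The smooth muscle and pericyte list (7 genes) summed to 116 to 182 RPKM and the satellite cell list (5 of 6 genes) to 12.6 to 20.5 RPKM. The neuromuscular junction list (7 genes) summed to 51.9 to 66.8 RPKM, with Chrne, the adult receptor subunit, at 14.6 ± 1.47 RPKM. In the type IIa list, Csrp3, a Z-disc LIM protein, had 69.3 to 152 RPKM beside Myh2, and the immediate early list (13 of 14 genes) summed to 142 to 213 RPKM, with Nr4a1, an orphan nuclear receptor, at 50.5 to 109 RPKM.

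Clock genes divided the libraries in another way. Arntl, the activator BMAL1, had 3.51, 2.92 and 3.29 RPKM in libraries 1 to 3 and 1.01 to 1.77 RPKM in libraries 4 to 7. Npas2, a partner of BMAL1, had 0.161 to 0.390 RPKM in libraries 1 to 3 and 0.024 to 0.074 RPKM in the other 4. Per1, a repressor in the loop, went the other way, with 3.67 to 9.83 RPKM in libraries 1 to 3 and 16.0 to 24.6 RPKM in libraries 4 to 7, as did Cry2 with 7.81 to 9.67 and 15.2 to 18.3 RPKM. Nr1d2 was level, at 30.2 to 33.5 RPKM. The labels give no time of dissection and no batch, so time, batch and library cannot be told apart.

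**Figure D5:**
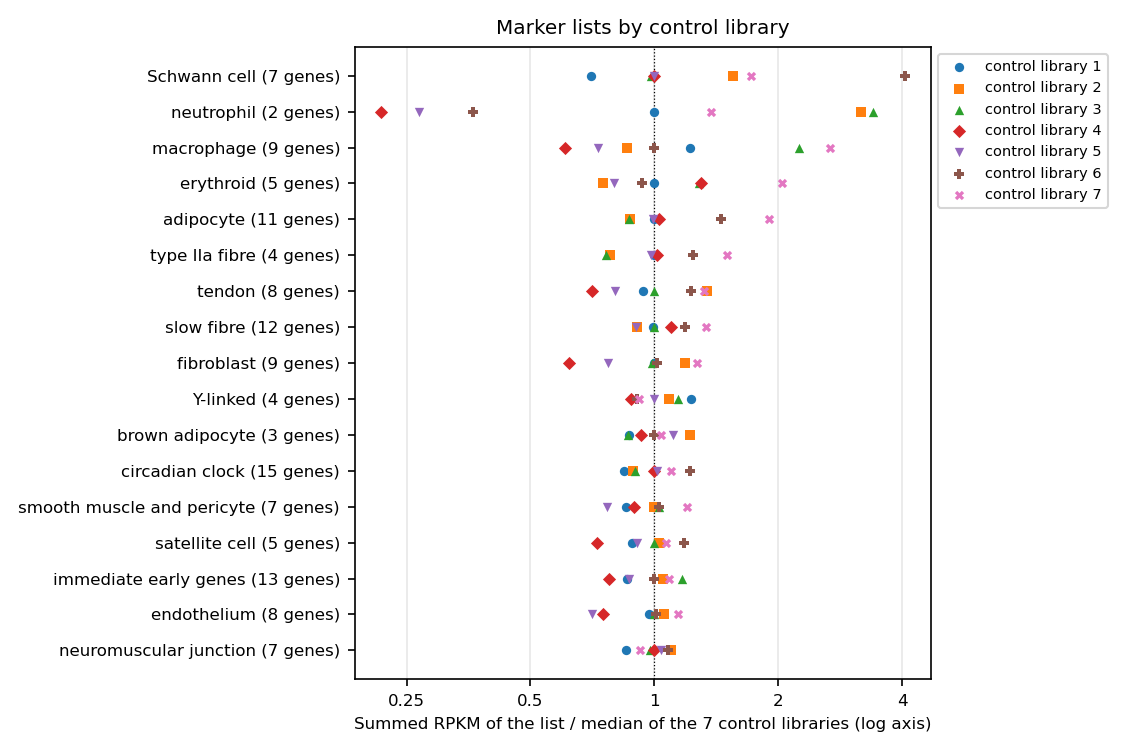
Summed RPKM of each marker list divided by the median of the 7 control libraries (log axis), with a symbol for each library and the number of listed genes in brackets. Library 6 stands out for the Schwann cell list (169 RPKM), and library 7 for the erythroid list (246 RPKM), while libraries 7 and 3 are highest for the macrophage list (124 and 104 RPKM) and libraries 7 and 6 for the adipocyte list (691 and 527 RPKM).

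Shares of summed RPKM by function were then compared with muscle of tumour-bearing mice by an exact permutation test of group means, two-sided, adjusted over 20 categories. In C26 vehicle libraries 8 categories were higher (40.0%) and 8 lower (40.0%) than in controls, and in C26 rolipram libraries 9 were higher (45.0%) and 7 lower (35.0%). Shares sum to 100%, so a fall in a large category raises others. Tumour effects cannot be told apart from those of injection or of traits not stated for the controls.

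The categories of contraction, respiration and oxygen binding were lower. The mitochondrial genome held 10.2 ± 1.27% in C26 vehicle and 9.66 ± 1.24% in C26 rolipram libraries, against 16.3 ± 1.78% in controls (exact permutation, adjusted p = 0.000971 and 0.00281). Sarcomere genes held 20.2 ± 1.65% and 20.2 ± 2.39%, against 24.6% in controls (adjusted p = 0.00179 and 0.00842, exact permutation), and their groups overlapped. Calcium cycling held 3.44 ± 0.392% and 3.12 ± 0.570%, against 5.70% (adjusted p = 0.000971 and 0.00281, exact permutation). Oxygen binding and carbonic anhydrase held 0.208 ± 0.115% and 0.136 ± 0.0557%, against 0.562% (the same adjusted p). Nuclear-encoded oxidative phosphorylation held 4.18 ± 0.496% and 5.43 ± 0.623%, against 6.08% (adjusted p = 0.000971 and 0.0379, exact permutation). The call in C26 rolipram was lost without control library 1, 2, 3, 6 or 7 and without rolipram replicate 3 or 4 (adjusted p = 0.0568 to 0.102, exact permutation), and with genes that lack a single length left out (adjusted p = 0.0568). Glycolysis and glycogen held 4.85 ± 0.632% in C26 vehicle, against 5.87% in controls (adjusted p = 0.00500, exact permutation). In C26 rolipram it held 6.40 ± 0.611%, which did not pass (adjusted p = 0.104, exact permutation). With genes that lack a single length left out, Aldoa among them, the difference was -0.40 percentage points as a share of RPKM (adjusted p = 0.0995, exact permutation), a setting chosen after seeing the data. Over the same genes it was -0.43 as a share of reads (adjusted p = 0.0442, exact permutation), so its direction rests on those genes and not on the weight. Aldoa itself averaged 10664 ± 1187 RPKM in C26 rolipram libraries, against 6808 ± 415 RPKM in controls. With all genes and without rolipram replicate 5 the RPKM share was 0.79 percentage points higher than in controls (adjusted p = 0.0110, exact permutation).

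Categories of protein turnover and of antioxidant and metal-binding genes were higher. Ubiquitin and proteasome genes held 3.54 ± 0.697% in C26 vehicle and 2.66 ± 0.102% in C26 rolipram, against 1.31 ± 0.0413% in controls. Cytosolic ribosomal proteins held 4.21 ± 0.588% and 4.76 ± 0.935%, against 2.42 ± 0.170%. Antioxidant and metal-binding genes held 2.49 ± 0.360% and 2.05 ± 0.328%, against 0.794 ± 0.0189%. For these 3 categories the adjusted p was 0.000971 in C26 vehicle and 0.00281 in C26 rolipram (exact permutation). Many other categories reached the same adjusted p, among them the mitochondrial genome, calcium cycling, translation factors and chaperones. It therefore does not set these 3 apart. The metal-binding gene Mt2 alone averaged 3334 ± 658 RPKM in C26 vehicle and 2615 ± 806 RPKM in C26 rolipram, against 13.4 ± 8.87 RPKM in controls. How much of the category's rise rests on single genes was not tested.

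Isoform shares were compared the same way over 48 families, taking the share of the form listed as the muscle form. In C26 vehicle libraries that share was higher in 9 families (18.8%) and lower in 28 (58.3%), and in C26 rolipram libraries higher in 8 (16.7%) and lower in 20 (41.7%). The largest difference was in AMP kinase gamma, where Prkag3 made 14.3 ± 5.52% in C26 vehicle and 25.6 ± 8.60% in C26 rolipram, against 62.0 ± 5.26% in controls. Ampd1 made 57.9 ± 25.2% and 70.1 ± 17.2% of AMP deaminase, against 98.0 ± 0.481%, and Mef2c 14.6 ± 8.33% and 29.6 ± 5.77% of MEF2 factors, against 51.8 ± 3.00%. Cox7a1 made 47.5 ± 8.55% and 39.9 ± 5.71%, against 63.1 ± 1.66%. For these 4 families the adjusted p was 0.00127 for C26 vehicle and 0.00337 for C26 rolipram (exact permutation). The same adjusted p was reached by many other families, among them filamin, calsequestrin, creatine kinase and adenylate kinase, so it does not set these 4 apart. Tpm1 made 54.1 ± 6.17% and 57.8 ± 9.78%, against 70.7 ± 6.71% (adjusted p = 0.00215 and 0.0359, exact permutation). The Tpm1 call in C26 rolipram was lost without any of control libraries 1 to 5 and without rolipram replicate 1, 4 or 5 (adjusted p = 0.0557 to 0.0891, exact permutation).

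Families without a single owner in health, or led by another member, also differed. Pdk4 made 81.9 ± 5.26% of pyruvate dehydrogenase kinase in C26 vehicle, against 48.5 ± 8.03% in controls (adjusted p = 0.00127, exact permutation), and 65.1 ± 22.9% in C26 rolipram, which did not pass (adjusted p = 0.143). Without rolipram replicate 5, at 24.6%, the difference was 26.7 percentage points (adjusted p = 0.00693, exact permutation). Jph1 made 53.5 ± 16.2% and 33.9 ± 4.10% of junctophilin, against 27.3 ± 1.55%, with both members lower in level: Jph2 averaged 45.4 ± 21.4 and 70.3 ± 21.5 RPKM, against 207 ± 13.2 RPKM. Myf6 made 93.2 ± 1.40% and 90.7 ± 3.77% of myogenic factors, against 75.2 ± 4.65%. For junctophilin and the myogenic factors the adjusted p was 0.00127 in C26 vehicle and 0.00337 in C26 rolipram (exact permutation). The choice of fast myosin was not called: Myh4 made 83.5 ± 4.74% and 81.7 ± 4.69% of myosin heavy chain, against 87.0 ± 5.17% (adjusted p = 0.229 and 0.143, exact permutation), while its level was 4340 ± 392 and 3277 ± 1477 RPKM, against 8530 ± 1299 RPKM. Tnnt3 made 99.2 ± 0.185% and 99.3 ± 0.291% of troponin T, against 99.0 ± 0.225% (adjusted p = 0.0951 and 0.0794, exact permutation). Its share passed as higher without vehicle replicate 6 (adjusted p = 0.0386) and without rolipram replicate 1 (adjusted p = 0.0126, exact permutation).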

How the data were processed

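The authors deposited 1 table of RPKM, with 13067 gene symbols and 19 libraries. STAR 2.5.3a, featureCounts 1.6.4 and the build mm10 are named in the submitters' processing notes. Per the labels' protocols, polyA RNA was enriched and libraries were made with a stranded kit; annotation, strand setting and the filter on listed genes are not given in the sources used here.

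No value was 0. Lengths from GENCODE M21 (basic, GRCm38) gave the deposited floor of 0.0102 reads per M reads in 37 of 37 genes, and with the recovered library sizes 95.4 to 97.0% of low control values were whole reads within 0.05 read. These sizes are estimates, and intervals from them cover counting error only.

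Shares were taken of each library's summed RPKM in 20 exclusive categories and 52 isoform families. Groups were compared by exact permutation of mean shares (3432 assignments for 7 against 7 libraries, smallest p 0.000583; 792 for 5 against 7, smallest p 0.00126), and isoform pairs by exact sign-flip, all two-sided with Benjamini-Hochberg adjustment and a threshold of 0.05. Count models were not applied, because the deposited values are RPKM. Spread was the SD of log2(RPKM + 1) among genes with a control mean of at least 1 RPKM. Named genes were the 30 most abundant, family members, marker genes, the top 3 of each category, the 20 of largest spread, the 10 of largest spread at 100 RPKM or more and the 10 of smallest spread at 10 RPKM or more. Genes of the glycolytic, respiratory and calcium paths came from fixed lists, and values given for genes outside these rules were chosen after they were seen. Members, categories and lists were chosen with earlier results of these data known.

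On simulated libraries of 13067 genes, 100% of categories changed 1.5-fold were called in both C26 comparisons, and 8% of runs without change had a call. Only the ubiquitin and proteasome, cytosolic ribosome, and antioxidant and metal-binding categories were changed. Noise was drawn gene by gene with the spread of the controls in every group. These rates, from few runs, therefore do not carry over to genes that shift together or to the wider spread of C26 libraries. Words of 50 bases were compared over all GENCODE M21 transcripts, and promoter windows came from RefSeq (GRCm38.p6). Each share of words is over all transcripts of a gene, so that of its main mRNA can be higher or lower. Python 3.11.15, numpy 2.4.6, pandas 2.3.3, scipy 1.17.1 and matplotlib 3.10.9 were used. Alternatives tried were the denominator, the weight, the pseudocount, the scaling, the filter, the block and leaving out each library. Genes without a single annotated length, Aldoa among them, are in no value given by reads. Values of a few genes are not reported here.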

Additional observations from a re-analysis of the deposited data

Results flagged for a closer look

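Over 193 groups of 5 or 7 values examined, 33 (17.1%) held a library far from the others by Dixon's gap test at the 95% level, where chance gives about 1 in 20. Of these, 22 were among the 30 groups of genes chosen for large spread, some of them counted more than once, so that count says nothing beyond the choice. The other 163 groups held 11 (6.75%).

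Library 3 of the controls was far above the others for genes known to carry or overlap ribosomal RNA sequence, with Gm23935 at 12991.5 RPKM, n-R5-8s1 at 1636.5, AY036118 at 268, Gm42418 at 4328, Gm15564 at 268, Lars2 at 369 and Mir6236 at 4565 RPKM. It was also far above for Cish (42.1 RPKM), Gpnmb (13.9 RPKM) and Sln (12.8 RPKM), and for the unclassified share, at 31.4% against 26.7 to 28.3%.

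Library 7 was far above for Igkc (149.6 RPKM), Ighg1 (24.1), Coro1a (26.5), H2-Ea-ps (53.1), H2-Aa (66.9) and Cd74 (86.7 RPKM), for the major histocompatibility and immunoglobulin share (0.193%) and for the erythroid list (246 RPKM). It was above for Tex2 at 14.7 RPKM against 13.7 to 14.0 RPKM. It was below for the Pygm share of glycogen phosphorylase (99.7% against 99.8 to 99.9%) and the Fabp3 share of fatty acid binding protein (51.9% against 57.0 to 60.3%).

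Library 2 was far above for Hspa1b (26.5 RPKM) and Hspa1a (23.3 RPKM), library 1 for Bc1 (37.2 RPKM), and library 6 for the Schwann cell list (169 RPKM). Ddb1 was lowest in library 1, at 52.8 RPKM against 54.6 to 55.6 RPKM.

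In C26 rolipram libraries, replicate 5 was far below the others for the Mef2c share of MEF2 factors, at 19.7% against 30.8 to 34.4%, and for the Pdk4 share of pyruvate dehydrogenase kinase, at 24.6% against 71.6 to 78.9%.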

How the results depend on the processing

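The sarcomere share of 24.6% was 24.3 to 25.1% with each control library left out and 29.4% without mitochondrially encoded genes. The share of the 20 most abundant genes, 44.6%, was 44.4 to 45.0% with each library left out, 38.5% without mitochondrially encoded genes (14 of the same genes) and 35.3% as a share of reads (17 of the same genes). The 42 genes with an SD of at least 1 became 89 with a pseudocount of 0.1, 131 by the range without the highest and lowest library, 26 at a mean of at least 10 RPKM and 27 to 45 with each library left out. Without libraries 3 and 7, a setting chosen after seeing the data, 19 genes passed. Median-of-ratios scaling gave 39 genes, and leaving out the 7 genes of the ribosomal RNA group, also chosen after seeing the data, gave 36. Isoform pair calls numbered 46 under every alternative run. The Pdk4 to Pdk2 log2 ratio, never called, was 0.02 over 7 libraries and -0.10 to 0.11 with each left out, below 0 without library 3 (-0.0054), 5 (-0.0068), 6 (-0.0383) or 7 (-0.100). Glycolysis and glycogen in C26 rolipram libraries differed from controls by 0.53 percentage points as a share of RPKM and by -0.43 as a share of reads. That share leaves out genes without a single annotated length, Aldoa among them, and leaving them out of the RPKM share alone gave -0.40.

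The labels do not say that sample numbers pair the groups. Same-numbered correlations alone cannot settle it, because different-numbered ones were not set beside them. Same-numbered deviations correlated at -0.033 to 0.313 between C26 vehicle and controls (over 0.1 in 4 of 7) and at -0.099 to 0.026 between C26 rolipram and controls (0 of 5). With the number as a replicate block, C26 vehicle calls were 16 functional and 37 isoform shares, as without it. C26 rolipram calls were 0 where 16 functional and 28 isoform shares were called without it, because 5 pairs cannot give a p below 0.0625. Under the other alternatives run, called categories numbered 16 to 18 in C26 vehicle and 13 to 16 in C26 rolipram libraries, and called families 35 to 39 and 25 to 28. Among single categories and families described here, 17 and 15 values in C26 rolipram lost their call with the direction kept, counted over all alternatives. The precision of all shares is limited by the number of libraries, and depth limits genes near the floor.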

Other observations

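Further genes, chosen after their values were seen, followed single control libraries or small sets of them. In library 7, H2-Ab1, a class II chain, had 44.7 RPKM against 3.94 to 9.23 RPKM in the other 6. Ptprc, the leukocyte antigen CD45, had 8.37 RPKM there against 0.141 to 0.757 RPKM, and Cxcl13, a chemokine that attracts B cells, had 6.84 RPKM against 0.144 to 0.450 RPKM. Ctss, a lysosomal protease of antigen-presenting cells, was high in libraries 3 and 7, at 10.8 and 10.4 RPKM, against 1.07 to 3.66 RPKM in the other 5. Hspa8, the constitutive Hsp70, had 243 RPKM in library 2 against 119 to 211 RPKM elsewhere, a smaller step than that of the inducible Hspa1a and Hspa1b. Ddit4, an inhibitor of mTOR signalling, had 25.6 to 34.6 RPKM in libraries 5 to 7 and 4.74 to 13.7 RPKM in libraries 1 to 4. Pck1, the cytosolic enzyme of glyceroneogenesis, had 4.68 and 7.89 RPKM in libraries 6 and 7, which also had the highest adipocyte list sums, against 0.183 to 1.43 RPKM in the other 5. What set these libraries apart was not tested.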
